A study of Mus musculus with 6 samples.

Results

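The genes described here are the 113 germline variable (V) segments of the mouse immunoglobulin heavy chain that the table of 52550 rows holds under a symbol starting with Ighv and the gene type IG_V_gene. Symbols and types were taken from GENCODE M21 (GRCm38) by the Ensembl identifier of each row, and the identifiers of all 113 also carried the version of that release. Their levels came from RNA sequencing of hearts from 6 C57BL/6 mice aged 10 weeks, all with a myocardial infarction made at 8 weeks by permanently tying the left anterior descending coronary artery. The 3 wild-type mice (WT) were compared with 3 lncRNA-DRR-/- mice (KO), which lack a long noncoding RNA, 2 weeks after the operation. The labels say neither how nor in which cells the RNA was deleted, nor do they name litters, operators or batches, so the p-values measure only the spread between these samples. Hearts without infarction were not analysed here.

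An antibody heavy chain gene is assembled in each developing B cell by joining 1 V segment to a D and a J segment, so that each B cell clone and the plasma cells descended from it transcribe the V segment they chose. The V segment encodes most of the variable domain, with its CDR1 and CDR2 antigen-contact loops, and is spliced to a constant region that sets the antibody class. V segments are numbered by sequence family and then by position along the locus. Plasma cells, which secrete antibody, hold far more of this RNA than resting B cells, and both can enter the infarcted heart.

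Markers of the labelled tissue were present: Myh6, the main adult myosin heavy chain, stood between 1568 and 2814 FPKM (fragments per kilobase, scaled to sequencing depth) in the 6 libraries, and none of the 8 tested cardiomyocyte markers was called. Approximate depth, from the most frequent value that 1 fragment contributes, was 5189000 fragments (WT replicate 3) to 9398000 (WT replicate 1). One fragment was thus worth about 0.301 to 0.546 FPKM in a segment of median length. KO replicate 3 stood apart in sex-linked genes, with Xist at 25.6 FPKM against at most 0.0742 in the others and Ddx3y at 0.0280 against 13.0 to 16.2. WT replicate 1 stood apart in antibody transcripts. Sums, counts and some single segments are therefore also given without these libraries, but not every result is.

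The segments lie side by side on the minus strand of chromosome 12, from 113578504 to 116000461 (GRCm38), over 2.42 Mb. Close copies are the rule: the median identity of a segment's transcript to the most similar other Ighv row was 95.4% (range 73.8% to 99.7%), 58 segments had a neighbour at 95% or more, and in 109 it belonged to the same family. A median of 78.1% of a segment's 50-base stretches occurred in no other Ighv row (lowest 2.58%). How the authors assigned reads that fit several rows is not given in the sources used here, so the value of a single segment is less certain than a sum. The sequences show the 3 segments whose difference passed the test beside the row most similar to each, and then the closest pair of all. They are 120-base stretches of GENCODE M21 transcripts, chosen where the pair differs most, with the differing bases in capitals.
Ighv5-9-1: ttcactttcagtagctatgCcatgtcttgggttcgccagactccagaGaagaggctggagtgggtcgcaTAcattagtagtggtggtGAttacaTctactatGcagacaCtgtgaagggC
Ighv5-6: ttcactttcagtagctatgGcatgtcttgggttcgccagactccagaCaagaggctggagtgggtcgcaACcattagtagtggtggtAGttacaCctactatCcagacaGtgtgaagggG
Ighv4-1: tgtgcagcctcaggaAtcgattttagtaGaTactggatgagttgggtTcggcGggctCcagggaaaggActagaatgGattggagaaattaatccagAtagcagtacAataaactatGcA
Ighv4-2: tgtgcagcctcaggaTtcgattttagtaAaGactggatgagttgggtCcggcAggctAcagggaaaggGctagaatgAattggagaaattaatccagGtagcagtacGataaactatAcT
Ighv9-2: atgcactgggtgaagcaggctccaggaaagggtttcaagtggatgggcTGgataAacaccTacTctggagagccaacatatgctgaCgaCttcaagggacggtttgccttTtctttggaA
Ighv9-1: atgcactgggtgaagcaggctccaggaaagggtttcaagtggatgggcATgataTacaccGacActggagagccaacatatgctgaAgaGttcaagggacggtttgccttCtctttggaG
Ighv1-62-2: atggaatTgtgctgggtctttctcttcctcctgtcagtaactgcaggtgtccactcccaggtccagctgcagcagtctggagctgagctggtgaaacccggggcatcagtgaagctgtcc
Ighv1-71: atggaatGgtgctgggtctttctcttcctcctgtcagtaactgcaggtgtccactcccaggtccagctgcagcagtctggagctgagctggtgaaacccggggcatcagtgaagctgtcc
Ighv5-9-1 (113736111 to 113736630 on chromosome 12) and Ighv5-6 differ at 10 of these 120 bases. Ighv4-1 (113948282 to 113948796) and its partner Ighv4-2, which is annotated as a pseudogene, differ at 12, and Ighv9-2 (114109001 to 114109430) and Ighv9-1 at 9. Ighv1-62-2 and Ighv1-71 differ at 1 base, so nearly any fragment of one also fits the other, and their 2 rows are uncertain as separate values.

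Summed over all 113 segments, heavy chain V transcripts were lower in KO hearts. The sum was 1223, 577.1 and 314.6 FPKM in WT replicates 1 to 3 and 315.6, 255.2 and 134.4 FPKM in KO replicates 1 to 3. WT replicate 1 held 3.89 times the sum of WT replicate 3, and WT replicate 3 and KO replicate 1 were level: KO replicate 1 lay above WT replicate 3 as deposited and below it after scaling (330.8 against 331.4). Group means after scaling differed 2.89-fold, 1.93-fold without WT replicate 1 and 2.39-fold without KO replicate 3. Leaving out both, an alternative chosen after the data were seen, gave 1.60-fold. In whole tissue, fewer antibody-making cells and less RNA per cell cannot be told apart. The sum over chosen segments was given no test.

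**Figure D1:**
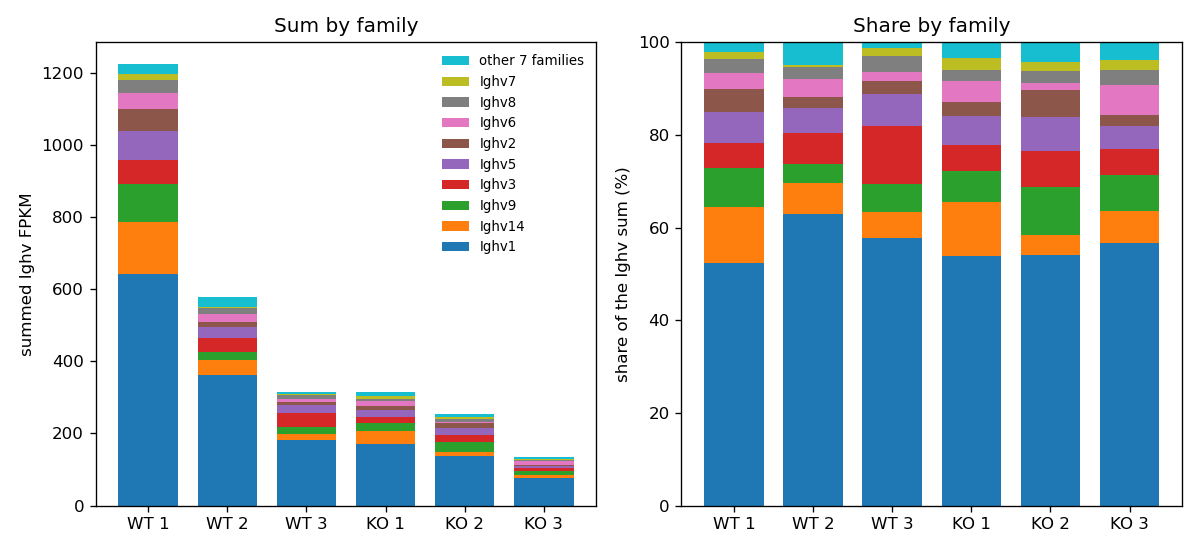
Summed FPKM of the Ighv segments (left) and each family's share of that sum in percent (right) in the 3 WT and 3 KO libraries, stacked by family, 1 bar per library. The bars fall from 1223 FPKM in WT 1 to 134.4 in KO 3 with WT 3 and KO 1 level, while family Ighv1 holds 52.5% to 62.9% in every library.

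By family, 13 of the 16 had a lower mean in KO hearts, 2 a higher mean (Ighv12 and Ighv13) and 1, the single segment Ighv16-1, was listed at 0 throughout. Family Ighv1, with 53 segments, held 641.9, 363.1 and 182.1 FPKM in the WT libraries and 169.8, 137.8 and 76.3 in KO libraries, so every KO library lay below every WT library. The same was true of families Ighv3, Ighv4, Ighv5 and Ighv8, which makes 5 of 16 families; no such share over other genes was computed for sums. Family Ighv3 stood at 66.8, 38.5 and 39.2 FPKM against 18.1, 20.0 and 7.65, a 3.12-fold difference of scaled means that was 2.63-fold without WT replicate 1. Family Ighv8 stood at 36.1, 14.8 and 11.2 against 7.03, 6.30 and 4.24 FPKM. Without WT replicate 1 the ratio of scaled means went from 2.99 to 2.17 for family Ighv1, from 2.90 to 1.81 for Ighv5 and from 3.41 to 2.27 for Ighv8.

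In families Ighv14, Ighv9, Ighv2 and Ighv7 the difference came largely with 1 library. Family Ighv14 stood at 145.9, 39.2 and 17.6 FPKM in WT and 37.3, 11.2 and 9.28 in KO, and the 3.27-fold difference of scaled means was 1.47-fold without WT replicate 1. For family Ighv9 (103.7, 23.7 and 18.7 against 20.5, 26.5 and 10.3 FPKM) 2.46-fold became 1.15-fold, and for family Ighv2 (61.0, 14.3 and 8.50 against 9.88, 14.5 and 3.25 FPKM) 2.93-fold became 1.28-fold. Family Ighv7 turned round, from a WT to KO ratio of 1.54 with all libraries to 0.723 without WT replicate 1. The same ratio went from 2.44 to 1.55 for family Ighv6, from 2.68 to 2.99 for Ighv10 and from 3.88 to 2.67 for Ighv11.

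Ighv5-9-1, Ighv4-1 and Ighv9-2 passed the test over all genes, each of them lower in KO hearts. Of the 113 segments 73 reached the filter on low values (at least 0.5 FPKM in 3 libraries), and of these 3 fell and 0 rose in KO (limma, adjusted p under 0.05 over 14656 genes), while over all tested genes 0.102% were called lower. At an unadjusted limma p under 0.05, 26 were lower and 0 higher, while 8.48% of all tested genes passed that threshold in either direction. Ighv4-1 and Ighv9-2 reached 0.5 FPKM in WT libraries alone, and Ighv5-9-1 in every WT library and in KO replicate 2. All 3 thus entered the test through the WT group, where they are high. With no filter 0 of 94 segments were called (limma, with 24 lower at an unadjusted p under 0.05). In that fit 1621 of 25162 genes passed the unadjusted threshold in either direction. Ighv5-9-1 stood at 9.67, 5.03 and 3.67 FPKM in WT and at 0, 0.582 and 0 in KO libraries. Ighv9-2 stood at 3.85, 2.34 and 2.73 FPKM against 0.391, 0.299 and 0. For Ighv4-1, the 1 segment of its family annotated as a gene, the values were 5.76, 2.25 and 2.00 FPKM against a listed 0 in each KO library. In none of the 3 did a KO library reach a WT library.

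On the scale of log2(FPKM + 0.5), KO minus WT ± SE with n = 3 each, the difference was -3.26 ± 0.38 for Ighv5-9-1 (limma adjusted p = 0.024). It was -2.26 ± 0.27 for Ighv9-2 (limma adjusted p = 0.024) and -2.80 ± 0.32 for Ighv4-1 (limma adjusted p = 0.022); with KO libraries at 0 these sizes depend on the added 0.5. Few fragments lie behind the values: about 37.5, 16.5 and 7.87 in the WT libraries for Ighv5-9-1 and 1.96 in KO replicate 2, and about 22.4, 7.43 and 4.30 in WT for Ighv4-1. With any 1 KO library left out, Ighv4-1 was not called (limma adjusted p from 0.064 to 0.095), and Ighv9-2 was not called without KO replicate 1 or 2 (limma adjusted p = 0.055 and 0.081). Ighv5-9-1 was not called without WT replicates 1 or 2 or KO replicates 1 or 3 (limma adjusted p from 0.059 to 0.110), and Ighv4-1 and Ighv9-2 failed the filter without any 1 WT library.

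Their nearest relatives gave other values. Ighv5-6 stood at 7.21, 4.75 and 1.68 FPKM in WT and 1.93, 2.12 and 0.932 in KO libraries (log2 difference -1.08, limma adjusted p = 0.543). Ighv9-1 stood at 29.9, 1.39 and 8.68 FPKM against 9.96, 8.26 and 0 (log2 difference -1.17, limma adjusted p = 0.867). The pseudogene Ighv4-2 was listed at 0 in all 6 libraries. The groups thus overlapped in both functional relatives of the called segments.

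**Figure D2:**
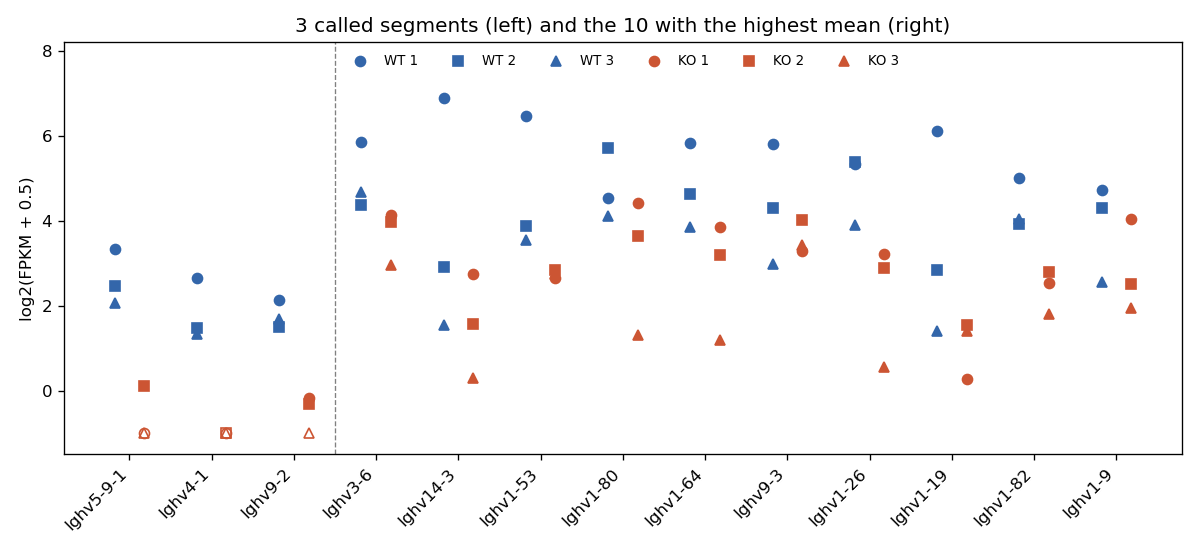
Level of single segments as log2(FPKM + 0.5) in each library (blue WT, red KO; circle, square and triangle for replicates 1 to 3; open symbols are listed at 0), with the 3 called segments left of the dashed line and the 10 of highest mean right of it. KO points lie below all WT points in the 3 called segments and in Ighv3-6, Ighv1-53, Ighv1-26 and Ighv1-82, and the WT 1 circle stands far above the other points in Ighv14-3 and Ighv1-19.

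The 10 segments with the highest mean over the 6 libraries were Ighv3-6, Ighv14-3, Ighv1-53, Ighv1-80, Ighv1-64, Ighv9-3, Ighv1-26, Ighv1-19, Ighv1-82 and Ighv1-9, and none of them was called. Closest to the threshold was Ighv1-82, at 31.9, 14.7 and 16.1 FPKM in WT and 5.25, 6.38 and 2.99 in KO libraries (log2 difference -1.95 ± 0.31, limma adjusted p = 0.068). Ighv1-26 stood at 40.2, 41.3 and 14.5 FPKM against 8.81, 6.95 and 0.976 (log2 difference -2.65 ± 0.70, limma adjusted p = 0.285). Ighv3-6, the most abundant segment of family Ighv3, stood at 57.5, 20.3 and 25.3 FPKM against 17.0, 15.1 and 7.23 (log2 difference -1.28 ± 0.41, limma adjusted p = 0.401). In these 3 the groups did not overlap, although the SE of Ighv1-26 was more than 2 times that of Ighv1-82.

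Ighv14-3, Ighv1-53 and Ighv1-19, the highest segments of WT replicate 1, were the highest in neither other WT heart. Ighv3-6 came next in WT replicate 1 at 57.5 FPKM and was the highest segment of WT replicate 3 at 25.3. Ighv14-3 stood at 118.8 FPKM in WT replicate 1 but at 7.04 and 2.41 in WT replicates 2 and 3, within reach of the KO libraries at 6.17, 2.45 and 0.730 (log2 difference -2.24 ± 1.26, limma adjusted p = 0.715). It made up 9.71% of the V sum in WT replicate 1 and 0.543% to 1.95% in the other 5 libraries. Ighv1-19 stood at 68.5, 6.67 and 2.13 FPKM in WT and 0.702, 2.41 and 2.14 in KO (log2 difference -2.37 ± 1.03, limma adjusted p = 0.603). Ighv1-53 stood at 87.8, 14.2 and 11.2 against 5.82, 6.69 and 6.23 FPKM (log2 difference -1.86 ± 0.65, limma adjusted p = 0.465), with KO libraries close together below all WT libraries. Without WT replicate 1 the log2 difference was -0.73 for Ighv14-3, -1.08 for Ighv1-19 and -0.99 for Ighv1-53.

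Ighv1-80, Ighv9-3 and Ighv1-9 overlapped between the groups. Ighv1-80, the leading segment of both WT replicate 2 and KO replicate 1, stood at 22.6, 51.5 and 16.7 FPKM in WT and 20.7, 11.9 and 1.98 in KO (limma adjusted p = 0.640). Ighv9-3 stood at 55.8, 19.3 and 7.34 FPKM against 9.20, 15.8 and 10.3 (limma adjusted p = 0.804), and Ighv1-9 at 25.8, 19.1 and 5.36 against 16.0, 5.18 and 3.32 (limma adjusted p = 0.768). Ighv1-64 stood at 56.1, 24.3 and 14.01 FPKM in WT and 14.02, 8.61 and 1.79 in KO (log2 difference -2.01 ± 0.71, limma adjusted p = 0.466); its WT replicate 3 and KO replicate 1 were level as deposited, and after scaling every KO library lay below every WT library.

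The tested leading segments of the smaller families were not called apart from Ighv4-1. Ighv15-2, the single segment of its family, was not tested and stood at 0.285, 3.66 and 0 FPKM in WT and 0, 0.316 and 0 in KO. Ighv8-12 came nearest, at 16.6, 9.24 and 7.73 FPKM in WT and 3.90, 4.42 and 2.02 in KO (log2 difference -1.54 ± 0.30, limma adjusted p = 0.130), and Ighv5-17 stood at 29.8, 9.003 and 8.35 against 5.05, 4.39 and 2.83 FPKM (limma adjusted p = 0.294); both were without overlap. Ighv11-2, a segment known from B-1 cell antibodies that bind phosphatidylcholine, stood at 13.9, 10.5 and 0.410 FPKM in WT and 0.616, 2.77 and 2.84 in KO (limma adjusted p = 0.826). Ighv12-3, known for the same specificity, stood at 1.72, 2.46 and 0 against 2.21, 2.78 and 0 FPKM (limma adjusted p = 0.980). In both segments WT replicate 3 was the lowest WT library. Ighv2-2 (36.9, 4.55 and 1.60 against 3.14, 5.90 and 0.822 FPKM), Ighv6-3 (30.0, 20.2 and 1.52 against 8.53, 1.41 and 2.98) and Ighv10-1 (2.26, 4.88 and 0.528 against 0, 0.843 and 1.81) overlapped too (limma adjusted p from 0.762 to 0.822).

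A minority of segments had the higher mean in KO hearts. Of the 94 segments above 0 in any library, 80 had the higher mean in WT and 14 in KO, and 19 were listed at 0 in all 6. Ighv13-2, the single segment of its family, stood at 0, 0.525 and 0.537 FPKM in WT and 6.91, 3.51 and 0 in KO (log2 difference 1.58 ± 0.92, limma adjusted p = 0.725). Ighv1-81 stood at 10.5, 4.41 and 1.08 FPKM against 2.65, 13.2 and 10.5 (log2 difference 0.84 ± 0.74, limma adjusted p = 0.833). Ighv1-85, at the far end of the locus, stood at 9.16, 1.45 and 0.803 against 3.76, 6.42 and 1.66 FPKM (log2 difference 0.48 ± 0.71, limma adjusted p = 0.908). In each of these the groups overlapped.

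Ighv14-4, Ighv1-75 and Ighv1-66 had a higher mean in KO but a negative log2 difference. In all 3 KO replicate 1 was the highest library, with 15.2 FPKM of Ighv14-4, 8.78 of Ighv1-75 and 6.16 of Ighv1-66, while KO replicate 3 held 0.397, 0 and 0. Their log2 differences were -0.68 ± 0.90, -0.29 ± 0.99 and -0.83 ± 0.95 (limma adjusted p = 0.892, 0.967 and 0.867). Ighv7-3 had a log2 difference of 0.01 ± 0.71, with 17.9, 2.48 and 1.84 FPKM in WT and 6.65, 4.88 and 2.82 in KO, and its sign changed without scaling (-0.0024).

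Over the 73 tested segments 67 had a log2 difference below 0 (91.8%, against 50.7% of all tested genes). The median was -1.13, with an interquartile range from -1.65 to -0.70 and extremes of -3.26 and 1.58, while the median over all tested genes was -0.004. After scaling, every KO library lay below every WT library in 22 segments (30.1%), against 7.50% of all tested genes, and in 0 every KO library lay above, against 6.53%. These counts describe the tested segments and not all 113, since 3 of the 73 (Ighv4-1, Ighv3-1 and Ighv9-2) reached 0.5 FPKM in WT libraries alone and 0 did so in KO libraries alone. Others, such as Ighv5-9-1, Ighv1-50 and Ighv1-84, reached it in every WT library but in only 1 KO library. Without WT replicate 1, 56 of 68 tested segments were below 0 with a median of -0.74. Without KO replicate 3, 58 of 73 were, with a median of -0.93. Without WT replicate 1 and KO replicate 3, 46 of 66 were, with a median of -0.52. Haemoglobin transcripts, which come from red blood cells, ranged from 6280 to 10998 FPKM in WT and from 4387 to 7246 in KO hearts; their part in the V segment differences was not tested.

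**Figure D3:**
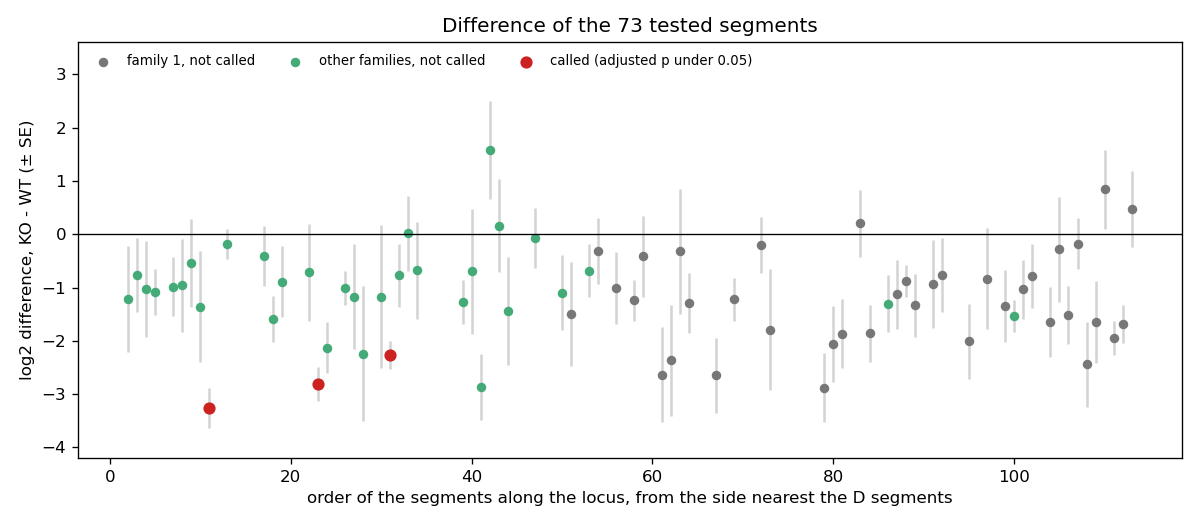
Log2 difference (KO minus WT, ± SE, from log2(FPKM + 0.5)) of the 73 tested segments, placed by their order among the 113 along the locus from the side nearest the D segments; grey points are family Ighv1, green points other families, red points the 3 called segments. Most points lie below 0 along the whole locus, and the called segments stand at orders 11, 23 and 31.

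Low segments lay all along the locus. Starting from the D side, the 38 nearest segments (Ighv5-2 to Ighv3-5) had 23 of 24 tested segments below 0 with a median of -1.02. The next 38 (Ighv3-6 to Ighv8-4) had 20 of 22 and -1.16, and the 37 farthest (Ighv1-49 to Ighv1-85, of families Ighv1 and Ighv8) had 24 of 27 and -1.34. The nearest segments held 34.2%, 21.5% and 26.2% of the V sum in WT and 30.1%, 31.1% and 26.4% in KO libraries, and the farthest 33.4%, 44.5% and 39.8% against 35.9%, 39.9% and 34.3%. The 2 genotypes overlapped in both shares.

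Within each heart the V sum was spread over many segments. The highest segment held 6.18% to 9.71% of the sum, a different one in most libraries: Ighv14-3, Ighv1-80 and Ighv3-6 in WT replicates 1 to 3 and Ighv1-80, Ighv9-3 and Ighv1-15 in KO replicates 1 to 3. The 10 highest held 48.4%, 47.3% and 48.5% in WT and 41.8%, 40.2% and 52.8% in KO libraries. The effective number of segments (the inverse of the summed squared shares) was 28.5, 30.4 and 31.0 in WT and 36.1, 37.4 and 25.6 in KO. No library was led by 1 dominant segment, and KO replicates 1 and 2 were the most even and KO replicate 3 the least.

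The number of segments seen is given with the fragments behind it. Segments above 0 numbered 86, 81 and 75 in WT and 74, 73 and 52 in KO libraries, from about 4269, 1692 and 600 V fragments in WT and 813, 759 and 335 in KO. Across the 113 segments, levels on the scale of log2(FPKM + 0.5) correlated between WT libraries at r = 0.75 to 0.82, between KO libraries at 0.53 to 0.75 and between genotypes at 0.54 to 0.78. These are descriptions over segments that share reads and germline sequence, and the lowest value of each of the last 2 kinds involved KO replicate 3.

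By contrast, V rows annotated as pseudogenes were almost silent. The 70 Ighv rows of type IG_V_pseudogene summed to 0.721 FPKM in WT replicate 1 and 0.204 in KO replicate 1 and were listed at 0 in the other 4 libraries, although 13 of the 113 segments have a pseudogene as their most similar row.

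Igkc, the heavy chain constant sum and Jchain stood lower in every KO library than in every WT library. Igkc, the kappa light chain constant region, stood at 1724, 953.9 and 540.2 FPKM in WT and 499.7, 373.6 and 196.8 in KO libraries. Heavy chain constant regions together stood at 798.0, 421.7 and 185.3 FPKM against 179.6, 135.4 and 71.3, and Jchain, which joins IgM and IgA into polymers, stood at 74.5, 29.9 and 20.2 against 16.1, 12.7 and 8.38. The WT to KO ratio of scaled means was 2.91 for Igkc, 3.50 for the heavy chain constant sum and 3.22 for Jchain. Without WT replicate 1 it was 2.13, 2.39 and 2.05. Without WT replicate 1 and KO replicate 3 it was 1.75, 1.96 and 1.78. The V sum was 0.582 to 0.709 times Igkc in WT and 0.632 to 0.683 times in KO libraries, and 15.6 to 19.3 times Jchain in WT and 16.04 to 20.02 in KO. Against the heavy chain constant sum it was 1.53, 1.37 and 1.70 times in WT and 1.76, 1.88 and 1.88 times in KO, without overlap; this ratio was given no test.

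**Figure D4:**
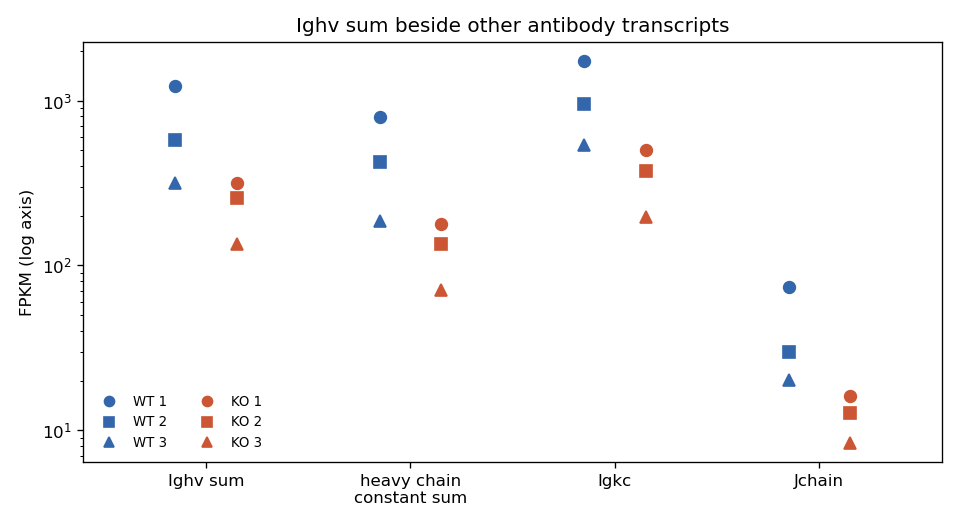
Summed Ighv FPKM beside the heavy chain constant region sum, Igkc and Jchain on a log axis (blue WT, red KO; circle, square and triangle for replicates 1 to 3, 1 point per library). The order of the libraries is nearly the same in all 4, from WT 1 at the top (1223 FPKM of Ighv) to KO 3 at the bottom (134.4), with the groups touching in the Ighv sum.

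Among the constant regions, 5 of 6 tested were below 0 and 0 was called in either direction (median log2 difference -1.78; limma, with 4 at an unadjusted p under 0.05). Ighm, of the IgM class, stood at 309.1, 114.4 and 24.5 FPKM in WT and 35.1, 27.3 and 22.2 in KO. Ighg2c stood at 155.9, 145.7 and 52.8 against 52.9, 27.7 and 12.8 FPKM, Ighg1 at 65.4, 33.6 and 23.7 against 10.3, 18.7 and 1.32, Ighg2b at 61.3, 47.0 and 15.0 against 17.1, 10.8 and 4.78, and Igha at 201.4, 74.0 and 68.0 against 62.5, 48.5 and 28.7. Ighd, co-expressed with IgM on resting B cells, was at 1.98, 1.85 and 1.09 FPKM against 1.67, 2.09 and 1.53, Ighg3 at 2.90, 5.07 and 0.153 against 0, 0.266 and 0, and Ighe was listed at 0. WT replicate 1 was the highest library in Ighm, Ighg1, Ighg2b, Ighg2c and Igha.

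Markers of plasma cells and of B cells overlapped between the groups in their summed level. After scaling, every KO library lay below every WT library in 4 of 10 tested plasma cell markers (Jchain, Mzb1, Prdm1 and Irf4). The same was true of 1 of 5 tested B cell markers (Blk) and of 7.50% of all tested genes. In the other tested markers of both lists the groups overlapped. Of 10 tested plasma cell markers 9 were below 0 and 0 was called (median log2 difference -0.72; limma, with 5 at an unadjusted p under 0.05), among them Prdm1 at 1.97, 1.27 and 1.76 FPKM in WT and 0.711, 0.603 and 0.714 in KO (limma adjusted p = 0.170) and Irf4 at 1.84, 1.28 and 0.663 against 0.188, 0.325 and 0.326 (limma adjusted p = 0.211), both transcription factor genes of plasma cell formation. Of 13 B cell markers 5 were tested, 4 below 0 and 0 called (median -0.15; limma, with 0 at an unadjusted p under 0.05), and they ranged from Ms4a1, a defining surface protein of B cells, at up to 0.207 FPKM to the transcription factor gene Ebf1 at 5.59 to 9.28 FPKM. Ebf1 was the tested B cell marker above 0 (log2 difference 0.35, limma adjusted p = 0.598), and Cd79a and Cd79b, parts of the B cell receptor, reached 3.46 and 2.59 FPKM. The plasma cell list summed to 59.1 to 183.9 FPKM in WT and 48.3 to 64.4 in KO. In the B cell list the sums were 8.74 to 15.7 and 9.06 to 14.9. Plasma cell sums overlapped through KO replicate 2 (64.4 FPKM) and WT replicate 3 (59.1). Txndc5 was higher in that KO library (25.7 against 13.2 FPKM), as was Sdc1 (10.25 against 6.05), while Jchain was lower (12.7 against 20.2). No difference between the lists was tested, and their part in the V segment values was not tested.

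Rag1, Rag2 and Dntt, which cut and extend V, D and J segments in developing lymphocytes, were listed at 0 in all 6 libraries. Other genes of the recombination list were detected, such as Lig4 at 1.92 to 2.11 FPKM. Of the 9 tested genes of the recombination list, 4 were below 0 and 0 called (median log2 difference 0.07; limma, with 0 at an unadjusted p under 0.05). All 4 light chain constant regions were below 0 with 0 called (median log2 difference -1.497; limma, with 3 at an unadjusted p under 0.05). Of 13 tested B cell receptor signalling genes 12 were below 0 and 0 called (median -0.22; limma, with 1 at an unadjusted p under 0.05). T cell markers summed to 6.29 to 12.02 FPKM in WT and 2.42 to 4.17 in KO, without overlap. Of these, 4 of 4 tested were below 0 and 0 called (median -0.95, limma, with 3 at an unadjusted p under 0.05). After scaling, every KO library lay below every WT library in 4 of 4, against 7.50% of all tested genes. Trac stood at 3.69, 4.02 and 2.78 FPKM in WT and 1.21, 1.30 and 1.78 in KO (limma adjusted p = 0.091). Trbc2 and Lck reached 0.5 FPKM in WT libraries alone.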

How the data were processed

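RNA of 6 infarcted hearts (3 WT, 3 KO) was sequenced from TruSeq libraries, per the labels. The authors deposited 1 table whose values are FPKM, although it is titled as counts; no other per-sample column was present. Bowtie 0.12.2 and the builds mm8 and mm9 are named without a role, per the submitters' processing notes; tool, annotation, strand setting and read assignment behind the values: not given in the sources used here. Of 52550 rows, 52403 matched GENCODE M21 (GRCm38) by identifier; no coordinate was converted.

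Genes at 0.5 FPKM or more in 3 or more libraries (14656) were divided by trimmed-mean scaling factors (0.949 to 1.07; trims of 0.3 on ratios and 0.05 on levels) and fitted as log2(FPKM + 0.5) with limma 3.58.1 in R 4.3.3 (genotype only, mean-variance trend, two-sided, Benjamini-Hochberg over all tested genes, called at 0.05). The fit was tested on simulated data for KO against WT: among 14343 genes it called 36 of 99 given a log2 change of 1, 90 of 95 given a change of 2, and 8 of the unchanged. The simulated noise was normal and of equal spread in both genotypes, with no fragment steps and no outlying library. These rates therefore do not describe segments with few fragments. A count test could not be used on FPKM. Sums took all segments, zeros included, and got no test. Identities came from pairwise alignment (Biopython 1.88) of each row's longest transcript; approximate fragments are FPKM times that length over the worth of 1 fragment (106.4 to 192.7), and no counting interval was built on them. Promoter windows of these segments were not used here.

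Segments, lists and tests were chosen with earlier results of these data known. Named segments are those called, the 10 of highest mean, the highest of each family, and those with a mean of at least 1 FPKM that was higher in KO; relatives in the sequence lines, Ighv3-1, Ighv1-15 and the ends of the locus were named after their values were seen. Alternatives were other scalings, pseudocounts, filters and variance models, the replicate block and leaving out each library.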

Additional observations from a re-analysis of the deposited data

How the results depend on the processing

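The direction of the V sum held under every alternative run: the log2 ratio of scaled means was -1.53, between -1.86 and -0.95 with 1 library left out, and -0.68 without WT replicate 1 and KO replicate 3, a choice made after the data were seen. The count of segments called lower was 3 and went to 1 with a pseudocount of 0.1, 0 with no filter (24 at an unadjusted limma p under 0.05), 6 with the replicate block, 0 to 2 with 1 library left out, and 0 without both libraries (16 at an unadjusted limma p under 0.05); it was 0 when the library left out was WT 1, WT 2 or KO 1 (18, 18 and 31 unadjusted). No setting called a segment higher in KO, although up to 4 reached an unadjusted limma p under 0.05. Those 4 were of 66 tested without WT replicate 1 and KO replicate 3, where 1436 of 13981 genes passed in either direction. Over all genes that threshold was passed by 1621 of 25162 with no filter. It was passed by 1175 of 14319 without WT 1, 836 of 14379 without WT 2 and 965 of 14423 without KO 1. Segments tested in these fits were, in the same order, 94, 68, 67 and 70. Over all genes 55 were called, 20 with no filter, 12 to 36 with 1 library left out, and 4 without both; fewer samples or more genes tested enter these fits. The replicate numbers did not pair the samples: same-numbered deviations correlated at 0.008, -0.036 and 0.18, and only the replicate 3 libraries correlated best with each other. The replicate block called 42 genes, among them Ighv1-26, Ighv3-8 and Ighv1-50 beside the 3 segments. Signs of uncalled segments changed as follows, and the cause was not tested. Ighv7-3 was -0.0024 without scaling and -0.021 with a pseudocount of 1; without both libraries Ighv2-2 was 0.52, Ighv14-4 0.34 and Ighv1-75 1.06. With 1 library left out the log2 difference ran from -0.50 to 0.90 for Ighv7-3, from -1.80 to 0.29 for Ighv14-4, from -0.62 to 1.02 for Ighv12-3, from -1.16 to 0.99 for Ighv1-75 and from -0.073 to 1.30 for Ighv1-85. Depth limits low segments: a library held about 335 to 4269 V fragments, and 1 fragment was worth about 0.301 to 0.546 FPKM in a segment of median length.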

Other observations

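The D and J segments that join the V segments were barely read. The heavy chain D rows were listed at 0 in all 6 libraries. Since each assembled heavy chain gene holds a D and a J segment, the D and J rows do not measure their use. How reads across the joins were assigned is not given in the sources used here. The J rows reached at most 2.58 FPKM (Ighj1 in WT replicate 1) and 2.06 FPKM (Ighj1 in WT replicate 3), Ighj3 stood at 0.964 FPKM in KO replicate 2, and every J row was listed at 0 in WT replicate 2, KO replicate 1 and KO replicate 3. Over all 113 V segments, 2 were above 0 in KO libraries alone and 8 in WT libraries alone. The 2 were Ighv3-4 (2.42 FPKM in KO replicate 2) and Ighv1-36 (1.17 in KO replicate 1 and 0.332 in KO replicate 3). Both were outside the test for low values and were named after their values were seen. Among the 8 was Ighv4-1, which was tested and called.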
